A study of Mus musculus with 16 samples.

Results

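The genes described here are 10 mouse genes of the growth cone and of the immature neuron: Gap43, Stmn1, Stmn2, Marcks, Marcksl1, Basp1, Dpysl3, Dpysl5, Crmp1 and Dcx. They were chosen by name with earlier results of these data known, so the share of them called is not independent of that knowledge. Each matched exactly 1 of the 48709 gene rows of the count table, and all 10 passed the filter on low counts in every comparison. RNA was sequenced from the cerebral cortex of C57BL/6 mice in 4 groups of 4 biological replicates. Synaptosomes (SYN), a fraction of pinched-off, resealed nerve endings that carries other cell fragments with it, were prepared at 3 weeks, 5 months and 19 months of age. Total homogenate (TH), the cortical material set aside ahead of synaptosome enrichment, was sequenced at 5 months. Libraries were made from rRNA-depleted total RNA with a stranded pico-input kit. The labels name no transgene, treatment or sex, and do not say how many animals went into a replicate.

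A growth cone is the motile tip of a growing axon, where actin under the membrane and the ends of microtubules are rebuilt as the axon advances. Gap43, Basp1, Marcks and Marcksl1 encode acidic proteins of the inner membrane face that bind lipids or calmodulin and are substrates of protein kinase C. The stathmins Stmn1 and Stmn2 bind tubulin, the collapsin response mediators Dpysl3, Dpysl5 and Crmp1 pass guidance signals to the cytoskeleton, and doublecortin (Dcx) stabilises microtubules of migrating neurons. In the cortex these genes are known for high expression while axons grow, and several of them stay on at adult presynaptic endings or are also transcribed in glial cells.

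Reference promoters of 3 members are shown because these genes span the range of the results: Marcksl1 changed most with age, Basp1 had the highest level and Dpysl5 was among the lowest. Each line gives the 250 bases before the RefSeq transcription start on GRCm38.p6, 5′ to 3′ on the gene's strand. Capitals mark a CCAAT box (CCAAT) or a GC box (GGGCGG) on either strand, and overlapping matches run together. The Marcksl1 window is chr4:129513331-129513580 (plus strand), that of Basp1 chr15:25413765-25414014 (minus strand), and that of Dpysl5 chr5:30711314-30711563 (plus strand).
Marcksl1: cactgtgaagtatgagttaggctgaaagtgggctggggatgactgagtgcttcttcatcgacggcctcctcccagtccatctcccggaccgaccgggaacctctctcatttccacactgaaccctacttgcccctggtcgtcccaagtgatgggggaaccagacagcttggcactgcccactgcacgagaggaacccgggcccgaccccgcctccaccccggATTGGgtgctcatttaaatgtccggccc
Basp1: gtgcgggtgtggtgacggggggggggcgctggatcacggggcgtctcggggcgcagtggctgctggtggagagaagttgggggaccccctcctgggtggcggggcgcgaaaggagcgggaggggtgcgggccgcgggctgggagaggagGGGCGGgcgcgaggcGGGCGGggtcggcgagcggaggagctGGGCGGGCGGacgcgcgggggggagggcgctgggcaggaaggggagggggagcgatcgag
Dpysl5: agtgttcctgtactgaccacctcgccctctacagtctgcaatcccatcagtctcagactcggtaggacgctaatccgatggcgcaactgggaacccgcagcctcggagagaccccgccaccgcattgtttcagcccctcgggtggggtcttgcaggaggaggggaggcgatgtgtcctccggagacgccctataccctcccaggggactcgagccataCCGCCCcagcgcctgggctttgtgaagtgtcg
The Marcksl1 window held 1 CCAAT match on the opposite strand and no GC box, while the Basp1 window held 4 GC boxes and the Dpysl5 window 1. A CCAAT match occurred in 33.8% of 32851 mouse promoters of the same length, and a GC box match in 32.7%. GC content was 60.4% for Marcksl1, 78.8% for Basp1 and 62.8% for Dpysl5, against a median of 52.4%. None of the 3 windows held the TATA box letters TATAAA (12.4% of promoters), the E-box CAGCTG (13% of promoters) or the cAMP response element TGACGTCA (1.55% of promoters). RefSeq promoters were matched for 5 members, the other 2 being Crmp1 and Dcx.

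Library depth was 10.6 to 21.7 megacounts. Mitochondrial rRNA took 42.6% to 51.7% of the counts in SYN at 3 weeks, 36.1% to 45.3% at 5 months and 17.6% to 22.0% in TH. At 19 months replicate 1 held 52.3% and the other replicates 32.9% to 33.6%. In 5 months SYN replicate 4 a list of 5 nuclear RNAs summed to 6609 CPM (counts scaled to the size of the library), against 1523 CPM in the lowest library of that group. Both libraries therefore stand apart within their own groups. Summed genes of mature neurons lay at 10181 to 11624 CPM in 5 months SYN and 5561 to 6514 CPM in TH, while endothelial and mural genes lay at 45.5 to 77.1 against 202 to 295 CPM. Single mature neuron genes went both ways. Of the 16, 8 were higher and 4 lower in 5 months SYN than in TH at an edgeR adjusted p under 0.05. Of all genes, 24.5% were higher and 25.6% lower. Astrocyte genes lay at 6654 to 7696 CPM in 5 months SYN and 2912 to 3479 CPM in TH, and microglial genes at 225 to 270 against 109 to 117 CPM. All CPM values are scaled over the 16 libraries by the trimmed mean of M-values (TMM).

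Between 3 weeks and 5 months, all 10 genes fell in SYN (edgeR quasi-likelihood test, Benjamini-Hochberg adjusted p under 0.05). In the same comparison 11.3% of the 15344 genes tested were called lower and 13.3% higher, together 24.6%. The members' median log2 fold change was -0.95, while that of all genes was 9.69e-05. The decreases ran from 4.94-fold for Marcksl1 to 1.28-fold for Gap43. As a share of all counts outside the mitochondrial genome, the 10 genes together took 0.214% to 0.268% at 3 weeks, 0.132% to 0.143% at 5 months, 0.117% to 0.127% at 19 months and 0.121% to 0.151% in TH. In bulk RNA, fewer cells or endings of a type and less RNA in each cannot be told apart.

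**Figure D1:**
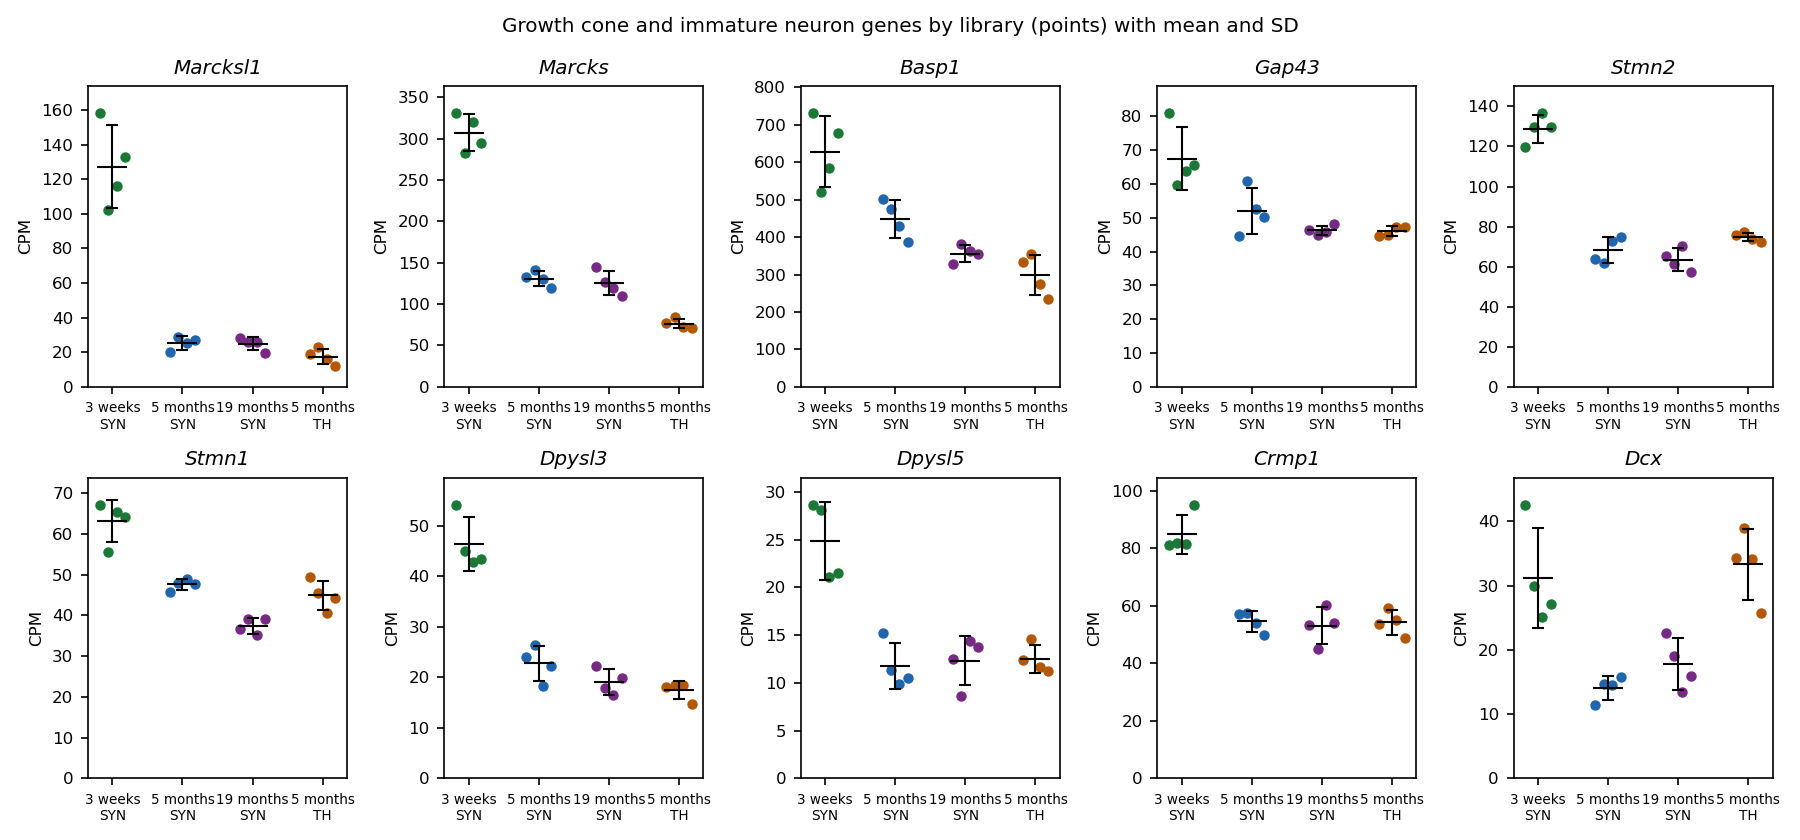
Level of each of the 10 genes in CPM (vertical axis, from 0, scaled separately per gene) in the 4 groups; points are libraries, horizontal lines are means and bars are SD (n = 4). The 3 weeks SYN libraries lie above all 5 months SYN libraries for every gene except Gap43, and all TH libraries of Dcx lie above its 5 months SYN libraries.

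Among the membrane-associated proteins, Marcksl1, which binds calmodulin and actin, changed most. It was measured at 158, 102, 116 and 133 CPM in replicates 1 to 4 at 3 weeks and at 19.9, 28.9, 25.6 and 27.3 CPM at 5 months. The lowest 3 weeks library was above the highest 5 months library by a wide margin. The log2 fold change was -2.31 (SE 0.135, edgeR adjusted p = 4.86e-12), the fifth smallest p of the table, and 0.261% of the genes tested had a lower log2 fold change. Marcksl1 lies on chromosome 4 (129513581 to 129515985, plus strand, 2 exons, ENSMUSG00000047945).

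Marcks, its larger relative, which cross-links actin and releases membrane lipid on phosphorylation, lay at 331, 283, 321 and 295 CPM at 3 weeks. At 5 months it lay at 133, 141, 130 and 120 CPM, with no overlap. It fell by 1.22 on the log2 scale (SE 0.0926, edgeR adjusted p = 2.72e-10), the thirteenth smallest p. Marcks is on chromosome 10 (37133375 to 37138920, minus strand, ENSMUSG00000069662).

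Basp1, which gathers phosphoinositide at the membrane, lay at 730, 521, 585 and 678 CPM at 3 weeks. Its 5 months libraries held 501, 475, 429 and 387 CPM. The groups did not overlap, but the nearest libraries were close, and the decrease was 0.47 log2 units (SE 0.101, edgeR adjusted p = 0.00108). Basp1 is on chromosome 15 (25363277 to 25413764, minus strand, ENSMUSG00000045763).

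Gap43, the growth-associated protein after which the group is often named, moved least. It was measured at 80.9, 59.8, 63.9 and 65.5 CPM at 3 weeks and at 44.5, 60.9, 52.5 and 50.4 CPM at 5 months. The groups overlapped, since 5 months replicate 2 exceeded 3 weeks replicate 2. The log2 fold change was -0.36 (SE 0.106, edgeR adjusted p = 0.0140), and the call was lost without 3 weeks SYN replicate 1 (-0.26, edgeR adjusted p = 0.0592) and without 5 months SYN replicate 1 (-0.28, edgeR adjusted p = 0.0671). Gap43 is on chromosome 16 (42248442 to 42340651, minus strand, ENSMUSG00000047261).

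The stathmins differed in size of change. Stmn2, the neuronal stathmin anchored to membranes and needed for axon maintenance, lay at 120, 130, 137 and 130 CPM at 3 weeks and at 63.8, 61.8, 72.7 and 74.8 CPM at 5 months. Every 3 weeks library was far above every 5 months library, and Stmn2 fell by 0.90 on the log2 scale (SE 0.0942, edgeR adjusted p = 6.95e-08). Stmn1, the cytosolic and widely expressed stathmin, lay at 67.1, 55.6, 65.4 and 64.3 CPM at 3 weeks and at 45.7, 48.0, 49.0 and 47.8 CPM at 5 months. These groups did not overlap either, and Stmn1 fell by 0.39 on the log2 scale (SE 0.0939, edgeR adjusted p = 0.00311).

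The 3 collapsin response mediators all fell, with no overlap between the groups. Dpysl3, an actin-bundling member also known as CRMP4, lay at 54.2, 45.1, 42.9 and 43.4 CPM at 3 weeks and at 23.9, 26.5, 18.4 and 22.2 CPM at 5 months (log2 fold change -1.01, edgeR adjusted p = 9.90e-07). Dpysl5, also known as CRMP5, went from 28.6, 28.0, 21.1 and 21.5 CPM to 15.2, 11.3, 9.87 and 10.5 CPM (log2 fold change -1.06, edgeR adjusted p = 3.30e-05). Crmp1, a mediator of semaphorin signalling, went from 81.2, 81.8, 81.6 and 95.2 CPM to 57.1, 57.6, 53.9 and 49.8 CPM (log2 fold change -0.62, edgeR adjusted p = 3.50e-05). Crmp1 overlaps the gene Evc on the other strand, which had 1562 counts in all libraries together against 16046 for Crmp1. The counting's strand setting is not known here, so reads of their shared stretch could not be assigned with certainty.

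Dcx, the microtubule protein that marks migrating and newborn neurons, had the lowest mean level per length in all 3 SYN groups. It lay at 42.6, 30.0, 25.1 and 27.1 CPM at 3 weeks and at 11.5, 14.7, 14.5 and 15.7 CPM at 5 months. The 3 weeks libraries were all higher, replicate 1 most of all, and Dcx fell by 1.12 on the log2 scale (SE 0.167, edgeR adjusted p = 1.82e-05). Dcx is X-linked (143855842 to 143933311, minus strand, ENSMUSG00000031285). In all, 9 of the 10 genes showed no overlap between the ages, lower at 5 months, as did 12.1% of all genes tested.

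**Figure D2:**
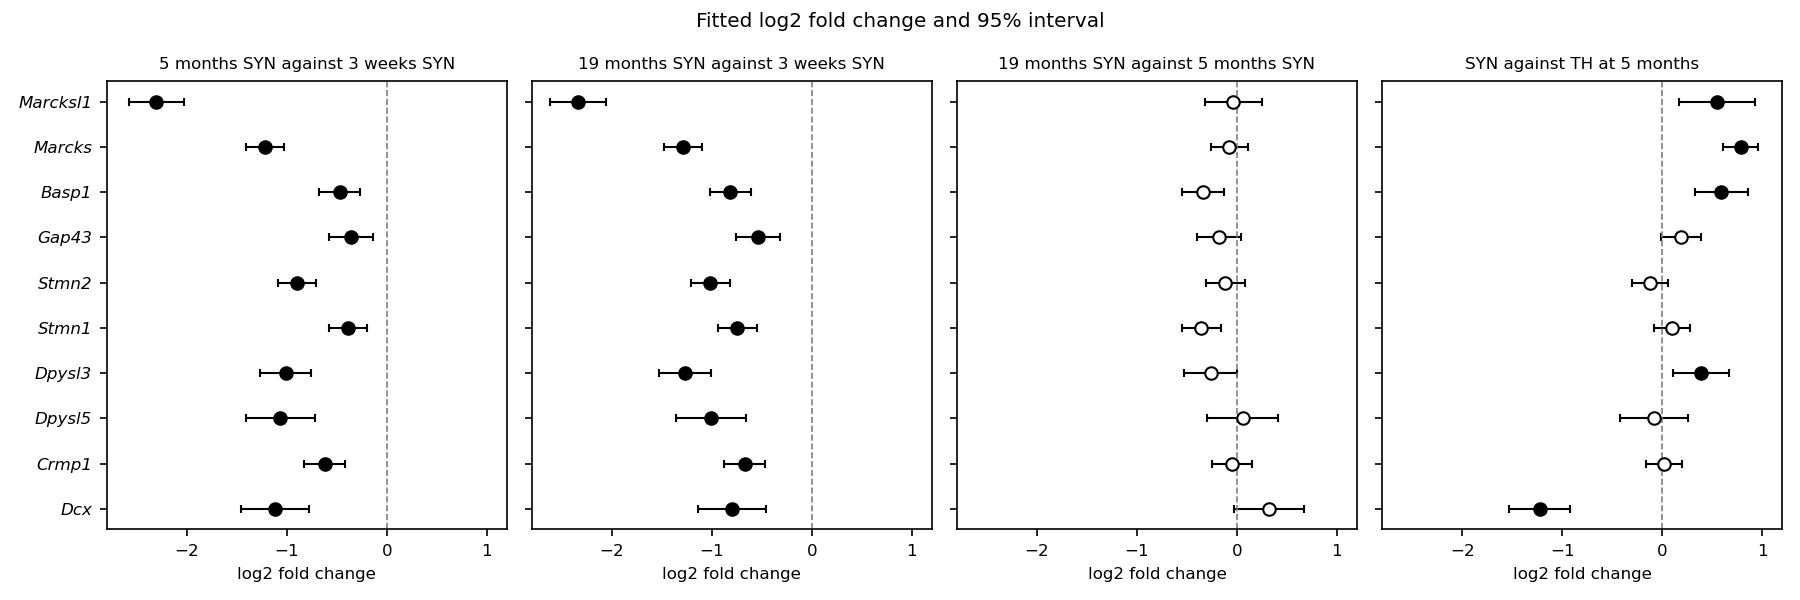
Fitted log2 fold change (horizontal axis) with its 95% interval for each gene in the 4 comparisons; filled points passed an edgeR adjusted p of 0.05 and open points did not. All 10 points are filled and left of 0 in both comparisons with 3 weeks, all are open between 19 and 5 months, and 4 are filled to the right and 1, Dcx, to the left in SYN against TH.

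From 5 to 19 months no member was called in either direction. In this comparison 0.3% of the 15344 genes were called, 0.13% higher and 0.169% lower. At an unadjusted edgeR p under 0.05, 2 members were lower. So low a p was held by fewer than 2186 of the 15344 genes, since Dpysl3, at an unadjusted edgeR p of 0.0527, ranked 2186. The DESeq2 Wald test called 1 member, and 154 of all 27207 genes. Stmn1 lay at 36.6, 39.1, 35.1 and 39.1 CPM at 19 months, below all 5 months libraries (log2 fold change -0.36, 95% interval -0.55 to -0.16, edgeR adjusted p = 0.0855, DESeq2 adjusted p = 0.0396). Basp1 lay at 327, 380, 362 and 355 CPM, also below all 5 months libraries (log2 fold change -0.34, 95% interval -0.55 to -0.13, edgeR adjusted p = 0.117). These were the 2 members without overlap, both lower at 19 months, where 4.53% of all genes were lower and 3.53% higher with no overlap. With only the 8 libraries of these ages in the fit both were called (edgeR adjusted p = 0.0495 for Stmn1 and 0.0263 for Basp1). That fit called 320 of all 14817 genes, against 46 in the reported fit.

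The other 8 members had overlapping groups at 5 and 19 months. Marcksl1 lay at 28.4, 25.9, 25.8 and 19.7 CPM at 19 months, and its log2 fold change of -0.036 had a 95% interval of -0.32 to 0.25. For Marcks the interval was -0.26 to 0.11, for Stmn2 -0.31 to 0.078, for Crmp1 -0.25 to 0.15 and for Gap43 -0.40 to 0.040. Dpysl3 had an interval of -0.53 to 0.0032 and Dpysl5 one of -0.30 to 0.41. Dcx was the member with the highest log2 fold change, at 22.7, 19.1, 13.4 and 15.97 CPM at 19 months (log2 fold change 0.32, 95% interval -0.029 to 0.67, edgeR adjusted p = 0.414).

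The comparison of 19 months with 3 weeks shares its libraries with the other age comparisons and is given beside them. All 10 members were called lower at 19 months with no overlap between the groups. Of all genes, 9.44% were called lower and 11.8% were lower with no overlap. The log2 fold changes were -2.34 for Marcksl1, -1.29 for Marcks, -1.27 for Dpysl3, -1.02 for Stmn2, -1.01 for Dpysl5, -0.81 for Basp1, -0.80 for Dcx, -0.74 for Stmn1, -0.67 for Crmp1 and -0.54 for Gap43. The largest edgeR adjusted p was 0.000964, for Dcx.

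Relations within gene families were read from counts within a library, which need no scaling between libraries; they were chosen after the values were seen. Marcksl1 counts were 0.361 to 0.478 of Marcks counts at 3 weeks, 0.150 to 0.228 at 5 months, 0.179 to 0.216 at 19 months and 0.172 to 0.270 in TH. The 3 weeks libraries lay apart from all others. The ratio was 2.13-fold lower at 5 months than at 3 weeks (exact permutation test, two-sided, p = 0.0286, which is the lowest possible p with 4 libraries a group; adjusted p = 0.0952 over 20 tests of 5 ratios). Stmn2 counts were 1.78 to 2.34 times Stmn1 counts at 3 weeks and 1.29 to 1.56 times at 5 months, also with no overlap (exact permutation p = 0.0286, adjusted p = 0.0952). Basp1 over Gap43 overlapped between these ages (exact permutation p = 0.429, adjusted p = 0.476), as did Dpysl3 over Crmp1 (exact permutation p = 0.0571, adjusted p = 0.127) and Dpysl5 over Crmp1 (exact permutation p = 0.0857, adjusted p = 0.156). No ratio passed an adjusted p of 0.05 in any comparison. With 20 tests, passing would have needed most of them to be at the lowest possible p, so this outcome says little. Since the ratios were chosen after the values were seen, their p-values are descriptive.

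**Figure D3:**
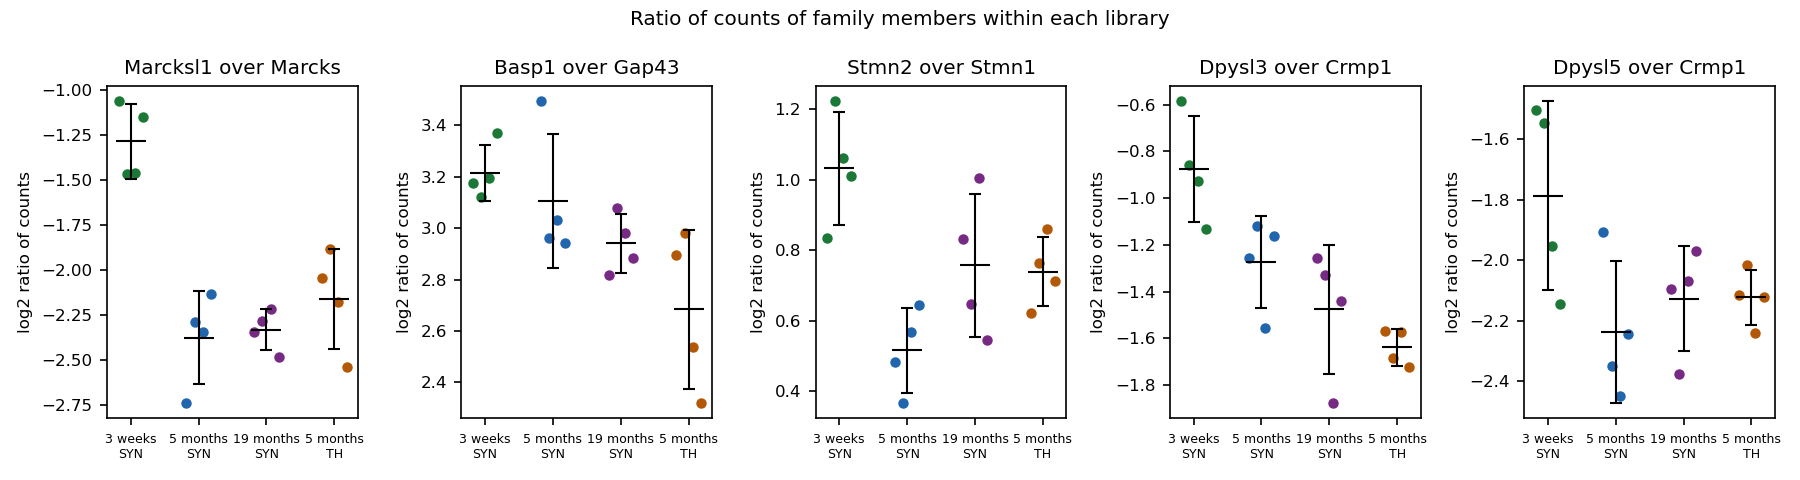
Log2 ratio of the counts of related genes within each library (vertical axis, scaled separately per pair), with points for libraries, lines for means and bars for SD (n = 4). For Marcksl1 over Marcks the 3 weeks libraries, with ratios of 0.361 to 0.478, lie above all other libraries.

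At 5 months, when synaptosomes were set against homogenate, 5 of the 10 members were called, 4 higher in SYN and 1 lower. Here 24.5% of 17374 genes were called higher and 25.6% lower, together 50.1%, so the members' share of called genes lay near the background. The median log2 fold change was 0.14 for the members and -0.050 for all genes. With upper-quartile scaling the median of all genes moved to -0.19 and the split of called genes from 4248 higher and 4456 lower to 3367 and 5525; 2 members were then called higher and 2 lower. Without 5 months SYN replicate 2, 2 members were called higher.

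Marcks, Basp1 and Marcksl1, of the membrane-associated proteins, were called higher in SYN. Marcks lay at 77.6, 84.4, 72.5 and 71.4 CPM in TH, below all 5 months SYN libraries (log2 fold change 0.79, SE 0.0800, edgeR adjusted p = 1.37e-06). Basp1 lay at 333, 354, 275 and 235 CPM in TH, also below all SYN libraries (log2 fold change 0.59, SE 0.122, edgeR adjusted p = 0.00132). Marcksl1 lay at 18.8, 22.8, 16.01 and 12.3 CPM in TH, and its highest TH library exceeded its lowest SYN library (log2 fold change 0.55, SE 0.176, edgeR adjusted p = 0.0182). The Marcksl1 call was lost with upper-quartile scaling, without 5 months SYN replicate 2 and without TH replicate 3 (edgeR adjusted p = 0.0617, 0.0574 and 0.0522). The SYN and TH columns carry matching sample numbers. Between libraries of the same number Marcks, Basp1 and Marcksl1 were each higher in SYN in 4 of 4 cases, and with these numbers as a block no member's call changed.

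Dpysl3 was the fourth gene called higher in SYN. It lay at 18.1, 18.4, 18.5 and 14.8 CPM in TH, and 5 months SYN replicate 3 lay within that range, and SYN was higher in 3 of 4 cases between libraries of the same number (log2 fold change 0.39, SE 0.131, edgeR adjusted p = 0.0210). That call was lost with upper-quartile scaling (edgeR adjusted p = 0.118), with DESeq2 (adjusted p = 0.0701), and without 5 months SYN replicate 1 or 2 or TH replicate 4 (edgeR adjusted p = 0.0510, 0.0732 and 0.0600). Glial markers were higher in SYN too. Called higher were 9 of 9 astrocyte, 10 of 10 microglial, 7 of 12 oligodendrocyte precursor and 6 of 8 myelin genes, against 24.5% of all genes. Endothelial and mural genes went the other way, with 9 of 10 called lower, against 25.6% of all genes. The part of glial cells in the 4 members called higher was not tested.

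Dcx alone was called lower in SYN. Its TH libraries held 34.3, 39.0, 34.2 and 25.7 CPM, all above the highest 5 months SYN library at 15.7 CPM. The log2 fold change was -1.23 (SE 0.143, edgeR adjusted p = 5.50e-06). In this comparison 2 members were higher in SYN with no overlap and 1 was lower, against 22.2% and 25.7% of all genes.

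The remaining 5 members were not called. Gap43 lay at 44.7 to 47.4 CPM in TH (log2 fold change 0.19, 95% interval -0.012 to 0.39) and was called higher without 5 months SYN replicate 1 (0.25, edgeR adjusted p = 0.0297). Stmn2 lay at 72.5 to 77.4 CPM in TH (log2 fold change -0.12, 95% interval -0.30 to 0.058) and was called lower with upper-quartile scaling (-0.26, edgeR adjusted p = 0.0188). Stmn1 lay at 40.6 to 49.3 CPM (95% interval -0.084 to 0.28), Crmp1 at 48.9 to 59.2 CPM (-0.17 to 0.20) and Dpysl5 at 11.3 to 14.6 CPM (-0.42 to 0.26). For Stmn1 and Crmp1 upper-quartile scaling turned the sign of the log2 fold change, to -0.044 and -0.12, and neither was called.

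Levels of different genes were compared per kilobase of exon, on the CPM scale. Basp1 was highest in all 4 groups, at 340 ± 50.8 CPM per kb at 3 weeks, 243 ± 27.3 at 5 months, 193 ± 11.9 at 19 months and 162 ± 29.3 in TH (mean ± SD, n = 4). At 3 weeks Marcksl1 was next with 79.3 ± 15.0 CPM per kb, its libraries overlapping those of Marcks (75.9 ± 5.45). Gap43 (44.3 ± 6.06), Stmn1 (32.8 ± 2.68), Stmn2 (23.0 ± 1.23), Crmp1 (12.1 ± 0.966) and Dpysl3 (7.41 ± 0.839) followed in steps without overlap, and Dpysl5 (3.36 ± 0.553) overlapped Dcx (2.47 ± 0.621).

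By 5 months Marcksl1 stood at rank 5, at 15.8 ± 2.45 CPM per kb, overlapping Stmn2 (12.2 ± 1.14). Gap43 (34.2 ± 4.47) and Marcks (32.3 ± 2.21) then overlapped at ranks 2 and 3, and Dcx was lowest at 1.115 ± 0.146. At 19 months Marcks (30.9 ± 3.55) and Gap43 (30.4 ± 0.867) overlapped again, and Marcksl1 was still at rank 5. In TH Marcks stood at rank 4 (18.9 ± 1.46 CPM per kb), below Gap43 and Stmn1, and Dcx at rank 9 (2.63 ± 0.439), above Dpysl5. This order depended on the length used. Divided by the longest annotated transcript, Stmn1 (59.5 CPM per kb) stood above Gap43 (47.6) at 3 weeks, where the other 8 genes kept their rank. Only 4 genes kept it at 5 months, 5 at 19 months and 2 in TH, and Marcksl1 stood at rank 7 instead of 5 at both later ages.

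**Figure D4:**
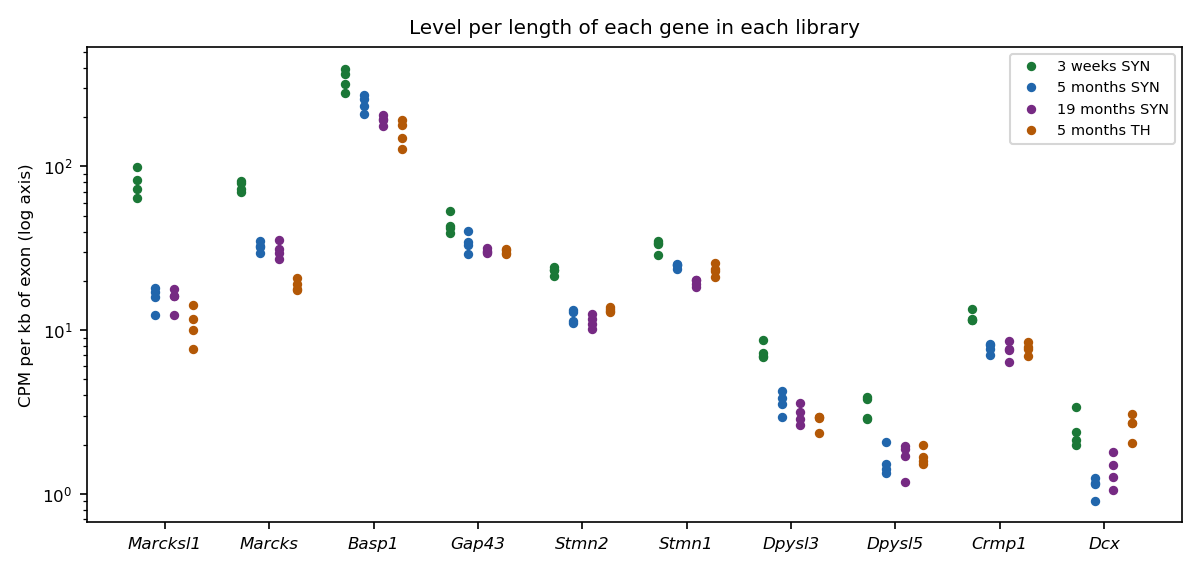
Level per length of each gene in CPM per kb of exon (vertical log axis), with 1 point per library and groups by colour. Basp1 is highest in all 4 groups, and the 3 weeks SYN points of Marcksl1 stand farthest above the other groups of the same gene.

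Close relatives outside the 10 genes, and the further gene lists below, were counted the same way. These lists too were chosen with earlier results of these data known. Of 7 relatives (stathmins, collapsin response mediators and doublecortin-like kinases), 5 fell between 3 weeks and 5 months and none rose, with a median log2 fold change of -0.45. They included Dpysl4 (-0.88, edgeR adjusted p = 0.000441), Stmn3 (-0.53, edgeR adjusted p = 0.000109) and Dpysl2 (-0.32, edgeR adjusted p = 0.00537). Over all genes, 11.3% were called lower between 3 weeks and 5 months and 9.44% between 3 weeks and 19 months. From 5 to 19 months none of the 7 was called, and 6 were called lower at 19 months than at 3 weeks. In SYN against TH 2 were higher, Dclk3 (0.50) and Dpysl2 (0.26), and 2 lower, Dpysl4 (-0.51) and Dclk2 (-0.37), shares near the 24.5% and 25.6% of all genes.

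Of 31 growth cone partners and regulators, such as kinases, actin proteins, adhesion proteins and RNA-binding proteins, 30 could be tested, of which 7 fell and 3 rose between 3 weeks and 5 months, with a median log2 fold change of -0.14. The actin bundler Fscn1 fell (-0.90, edgeR adjusted p = 1.31e-07), as did the actin-severing Cfl1 (-0.90, edgeR adjusted p = 7.87e-08), whereas Shtn1, a clutch protein between actin and adhesion molecules, rose (0.76, edgeR adjusted p = 8.37e-06). From 5 to 19 months 1 of the 30 fell, the microtubule protein Map1b (-0.40, edgeR adjusted p = 0.0474). The shares of all genes called were 11.3% lower and 13.3% higher at 5 months against 3 weeks, and 9.44% and 10% at 19 months against 3 weeks. From 5 to 19 months 0.169% were lower. At 19 months against 3 weeks 13 of the 30 were lower and 2 higher. In SYN against TH 15 were higher and 3 lower, with L1cam, an axonal adhesion molecule, at 1.11 and the RNA-binding Elavl2 at -0.69. Of all genes, 24.5% were called higher and 25.6% lower in that comparison.

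Of 18 other genes of immature neurons, 14 fell between 3 weeks and 5 months and none rose, with a median log2 fold change of -0.79. Tuba1a, the tubulin of growing neurons, fell by 1.28 on the log2 scale (edgeR adjusted p = 3.28e-10), and Draxin, a guidance protein, fell by 2.72 (edgeR adjusted p = 0.000324). Draxin counts were low, with a mean of 2.93 CPM at 3 weeks and 0.428 CPM at 5 months. Between 3 weeks and 5 months 11.3% of all genes were called lower, and between 3 weeks and 19 months 9.44%. None of the 18 was called from 5 to 19 months, and 14 were lower at 19 months than at 3 weeks. In SYN against TH, where 24.5% of all genes were called higher and 25.6% lower, 16 of them could be tested. Of these, 9 were called higher and none lower, unlike Dcx. Their sum was 637 to 682 CPM in 5 months SYN and 430 to 480 CPM in TH, with Tubb2b at a log2 fold change of 1.72 and Islr2 at 1.39. Of 16 genes of mature neurons, 5 rose and 2 fell between 3 weeks and 5 months, with a median log2 fold change of 0.094. In that comparison 13.3% of all genes were called higher and 11.3% lower. Nefh, a neurofilament, rose by 0.63 (edgeR adjusted p = 0.000130) and Nrgn, a postsynaptic calmodulin binder, fell by 0.96 (edgeR adjusted p = 6.87e-09).

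Markers of other cell types moved with age as well. Oligodendrocyte precursor genes fell in 11 of 12 cases between 3 weeks and 5 months, from a summed 451 to 499 CPM to 204 to 218 CPM, with 198 to 237 CPM at 19 months and 131 to 141 CPM in TH. Myelin genes fell in 7 of 8 cases, from 7241 to 10101 CPM to 2286 to 2833 CPM, with 2262 to 3171 CPM at 19 months and 1508 to 1673 CPM in TH. Of 4 tested proliferation genes out of 8, 3 fell, from a summed 24.5 to 36.9 CPM to 4.41 to 5.57 CPM, and Cdk1 and Ube2c had no count in any 5 months SYN library. Meningeal genes fell in 2 of 6 cases, and astrocyte genes rose in 1 and fell in 2 of 9 cases, small counts to be read beside the 13.3% of all genes called higher and 11.3% called lower. Microglial genes rose in 4 of 10 cases, from a summed 161 to 240 CPM to 225 to 270 CPM, and 4 of 9 tested endothelial and mural genes rose. The part of these cells in the decrease of the 10 genes was not tested.

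Migrating neuroblasts and interneuron progenitors are other cells in which Dcx is known to be expressed. Of 9 genes of these cells, none fell and 2 rose between 3 weeks and 5 months. These were Pax6 (0.55, edgeR adjusted p = 0.0101) and Sp9 (0.60, edgeR adjusted p = 0.0384). Of all genes, 13.3% were called higher and 11.3% lower. At 19 months against 3 weeks, 4 of the 9 were higher and none lower, where 10% and 9.44% of all genes were. In SYN against TH, 2 of the 9 were higher and none lower, where 24.5% and 25.6% of all genes were. The 9 genes summed to 47.3 to 68.6 CPM at 3 weeks, 44.5 to 89.1 CPM at 5 months, 90.9 to 97.3 CPM at 19 months and 30.9 to 72.5 CPM in TH. Nuclear RNAs, which stood with Dcx on the TH side, summed to 812 to 1088 CPM at 3 weeks, 1523 to 6609 CPM at 5 months, 1598 to 2449 CPM at 19 months and 19805 to 23878 CPM in TH. All 5 were called lower in SYN than in TH, and their part in the Dcx difference was not tested. On leaving out single libraries the Dcx log2 fold change in SYN against TH ran from -1.34 to -1.14. It was -1.30 without 5 months SYN replicate 4, the library with the most nuclear RNA in its group, and -1.23 with all libraries. Leaving that library out is no test of nuclear RNA, because the other 5 months SYN libraries, at 1523 to 2169 CPM, also lay below TH.

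**Figure D5:**
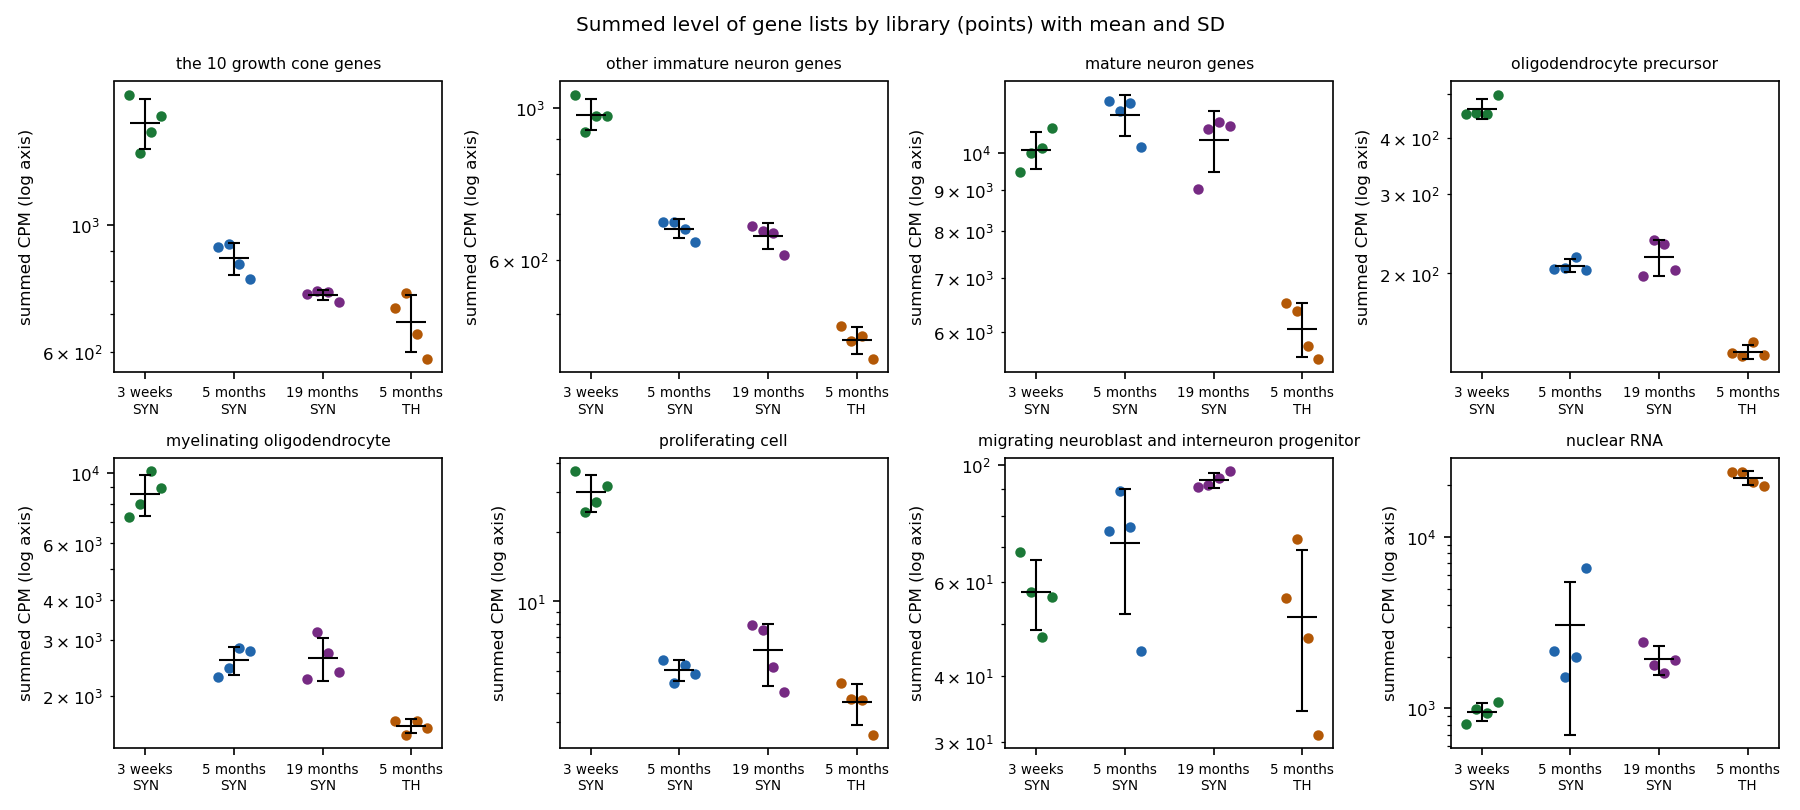
Summed CPM (vertical log axis, scaled separately per list) of the 10 genes and of 7 other gene lists in each library, with lines for means and bars for SD (n = 4). The 10 genes, the other immature neuron genes, the oligodendrocyte precursor, the myelin and the proliferation lists are highest at 3 weeks, while the neuroblast list is not.

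The members also differed in which other genes followed their pattern. Likeness was measured as the root mean square difference of mean-centred log2 CPM over the 16 libraries, among 9372 genes whose mean level was 5 CPM or more, as a description. Gap43 was closest to Khsrp (0.0854), Crmp1 to Thop1 (0.0870), Stmn2 to Tubb4a (0.115), Stmn1 to Fez1 (0.116) and Basp1 to Sox8 (0.137). Marcks was closest to Ctnnb1 (0.177), Dpysl5 to Aacs (0.204), Dpysl3 to Nav1 (0.209), Dcx to Ankrd44 (0.267) and Marcksl1 to Sirt2 (0.297). Among the members themselves Gap43 and Stmn1 were most alike (0.154), and Dcx and Marcksl1 least (1.08). These values are not scaled to a gene's own root mean square deviation from its mean, which was 0.250 for Gap43 and 1.14 for Marcksl1. They therefore tend to be small for genes that varied little and do not rank closeness between members.

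The authors' deposited splicing tables gave a further readout for some members between ages of SYN. In the authors' deposited LeafCutter table, which tests clusters of introns that share an end, the Marcksl1 cluster had an adjusted p of 0.0450 between 3 weeks and 5 months, where 6.61% of 4250 clusters were under 0.05. The annotated Marcksl1 intron (chromosome 4, 129513917 to 129514716) went from a usage fraction of 0.993 to 0.934 in the authors' deposited table. An unannotated intron with the same 3′ end (129514466 to 129514716) went from 0.00665 to 0.0664. The deposited fractions depend on the pair of ages fitted: for this intron the authors' deposited table of 19 months against 3 weeks gave 0.0202 at 3 weeks and 0.0196 at 19 months, and that of 19 against 5 months gave 0.0775 at 5 months and 0.0238 at 19 months. The authors' deposited table gave adjusted p of 0.424 for Marcksl1 between 5 and 19 months and 0.984 between 3 weeks and 19 months. Shares of clusters under 0.05 in those comparisons were 0.768% and 4.81%.

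Between 3 weeks and 5 months the clusters of Crmp1, Basp1 and Gap43 had adjusted p of 0.204, 0.432 and 0.671 in the authors' deposited table, and both Dcx clusters were marked there as having too few samples with coverage. In the authors' deposited DIEGO table, which tests single junctions, 1 of 15 junctions assigned to Crmp1 (chromosome 5, 37292129 to 37292692) had a q-value of 0.0464 in that comparison. Of all 94845 junctions 1.48% were under 0.05. No junction of another member was, among 13 of Dpysl3, 12 of Dpysl5, 4 each of Stmn1 and Stmn2, 3 each of Basp1 and Dcx and 2 of Gap43. The authors' deposited table marked none of the Crmp1 junctions as significant, and the one from 37292129 runs past the annotated end of Crmp1 at 37292133. No junction of a member had a q-value under 0.05 in the authors' deposited tables between 5 and 19 months or between 3 weeks and 19 months, where 0% and 0.69% of all junctions did. Read numbers per junction are not in the tables used here, so the depth behind these fractions is unknown.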

How the data were processed

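The deposited gene counts are whole-number counts per gene, made by the authors. Per the submitters' processing notes, bcl2fastq 2.20.0.422, cutadapt 1.18, Trimmomatic 0.38 and featureCounts of Subread were used on GRCm38.p6; for the aligner, the annotation release and the strand setting, nothing is stated in the sources used here. The authors' deposited splicing tables hold, per the file headers, p-values, q-values, usage fractions and a change score that was not printed.

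Genes were filtered with filterByExpr, then scaled by TMM. The test was the quasi-likelihood F test of edgeR 4.0.16 in R 4.3.3, with 8 libraries for SYN against TH and 12 for the ages. Adjusted p covered all genes tested, called under 0.05. DESeq2 1.42.0, other scalings and filters, a replicate block, other library sets and each library left out were alternatives. The fit was tested on simulated data.

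Members and lists were chosen with earlier results of these data known. All members were named. List genes were named from those called with the highest or lowest log2 fold change or with the smallest p, and not all of these were named. Relatives could all be named. Cdk1 and Ube2c were named for having no count. Dclk2 in SYN against TH was named to complete a small count, after its value was seen. Gene ratios and leaving out both libraries that stand apart were chosen after the data were seen. Coordinates come from GENCODE on GRCm38, and promoters from RefSeq.

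The 5 months SYN and TH columns share replicate numbers and, per the file headers, sample numbers, which may mark 1 preparation split into both fractions; the labels do not state it. Deviations from group means correlated at 0.0884, 0.0200, 0.0176 and 0.144 within numbers 1 to 4. The reported fit has no block, and the blocked fit changed no member's call. No 2 libraries were copies.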

Additional observations from a re-analysis of the deposited data

Results flagged for a closer look

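Of 40 sets of 4 libraries (10 genes in 4 groups), 2 held a library far from the other 3, and chance flags about 1 set in 20. Dpysl3 in TH replicate 4 was lowest at 14.8 CPM, with the others at 18.1 to 18.5 CPM; without that library Dpysl3 was not called between SYN and TH. Crmp1 in 3 weeks SYN replicate 4 was highest at 95.2 CPM, with the others at 81.2 to 81.8 CPM; without it Crmp1 was still called lower at 5 months.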

How the results depend on the processing

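In SYN against TH, upper-quartile scaling called 2 members higher and 2 lower, and leaving out single libraries 2 to 4 higher. In 19 against 5 months, members called lower were 1 with no filter, 1 with DESeq2 and 2 with 8 libraries. Genes called in that comparison, 46 in the reported fit, were then 292, 154 and 320; they were 28 with all 16 libraries, 5 without the libraries that stand apart and 0 to 124 on leaving out single ones. A threshold of 0.01 left 0 members in either splicing table. Longest transcripts kept 4, 5 and 2 members at their rank at 5 months, 19 months and in TH. Near 0, signs turned in SYN against TH for Crmp1 (-0.038 with DESeq2 size factors, -0.12 with upper-quartile scaling, -0.044 with the Wald test, -0.032 to 0.067 on leaving out single libraries), Stmn1 (-0.044, upper-quartile) and Dpysl5 (-0.23 to 0.0075, single libraries). In 19 against 5 months they turned on leaving out single libraries for Marcksl1 (-0.13 to 0.059), Dpysl5 (-0.027 to 0.21) and Crmp1 (-0.12 to 0.023). The cause was not tested. The replicate block changed no member's call (4 higher and 1 lower in SYN against TH, 10 lower at 5 months and at 19 months against 3 weeks, 0 in 19 against 5 months, where it called 264 genes). Between 5 months SYN and TH, numbers 1 and 4 correlated best with their own number, while numbers 2 and 3 did not. Numbers 1 and 4 also did so between 3 weeks SYN and 19 months SYN (0.0926 and 0.0430), so these values do not settle whether numbers mark pairs. Neither DESeq2 size factors nor removal of mitochondrial counts changed a member's call. Counts per member and library ran from 121 (Dpysl5) to 10304 (Basp1).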
